A study of Mus musculus with 6 samples.

Results

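The 10 genes described here encode a ligand, receptors and Smad proteins of the transforming growth factor beta (TGF-beta) and bone morphogenetic protein (BMP) pathways: Tgfb1, Tgfbr1, Tgfbr2, Tgfbr3, Bmpr1a, Bmpr2, Smad2, Smad3, Smad4 and Smad7. They were chosen by name, as signals by which the marrow niche holds stem cells in quiescence, and all 10 were found in the deposited table, among 12008 genes with values high enough to test. Expression was measured by RNA sequencing in long-term haematopoietic stem cells (LT-HSC). The cells were lineage-depleted bone marrow cells of C57BL/6 mice, sorted to carry Sca-1, Kit and CD150 and lack CD34, CD48 and Flk2. One group of 3 libraries came from Itpkb-/- mice, whose ENU-induced allele is named Ms T-less in the labels (the labels also spell the genotype IPTKB-/- and ItpkB-/-), and the other 3 came from wild-type littermates. Each library pooled 4 age-matched mice and at least 10000 sorted cells, and neither group received a treatment. The labels state no age and name no tissue to which the allele is restricted. Itpkb encodes inositol-trisphosphate 3-kinase B, an enzyme of inositol phosphate signalling.

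TGF-beta is secreted in a latent form and, once released, binds a pair of type II receptor chains (Tgfbr2), which phosphorylate the type I chains (Tgfbr1). The active complex phosphorylates Smad2 and Smad3, which join Smad4 and enter the nucleus to regulate genes. BMP ligands act through Bmpr2 and type I chains such as Bmpr1a on Smad1, Smad5 and Smad9, and Smad7 is an inhibitor that active signalling induces. In the bone marrow, TGF-beta is known as a niche signal that keeps stem cells out of the cell cycle.

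None of the 10 genes passed the test of a difference between Itpkb-/- and wild-type LT-HSC, fitted across all genes (limma, with Benjamini-Hochberg adjustment). The limit was an adjusted p of 0.15, the rate that the study's design text allows for false discoveries. Of all 12008 tested genes 661 passed it, or 5.50%. All 10 genes passed the filter on low values. Their log2 differences were positive for 5 genes and negative for 5, with a median of 0.02, against 0.00 over all tested genes. Adjusted p ran from 0.314 for Tgfb1 to 0.972 for Smad2, and 1 gene, Tgfb1, had an unadjusted p under 0.05, as did 15.5% of all tested genes. The edgeR quasi-likelihood test and DESeq2, run on the whole reads recovered from the values, also called 0 of the 10, against 6.02% and 6.86% of all genes. When the libraries were paired by their replicate number, Tgfb1 and Tgfbr3 passed as higher in Itpkb-/- cells (adjusted p = 0.0716 and 0.107), in a fit that called 18.1% of all tested genes and 9.15% as higher.

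The values are normalized CPM as deposited, where CPM scales a gene's reads to the size of the library. The libraries held 4024203 to 7470329 recovered reads, and 1 read was worth 0.131 to 0.249 normalized CPM. Itpkb itself was lower in each Itpkb-/- library (10.2, 13.99 and 18.2 normalized CPM) than in any wild-type library (22.1, 23.6 and 25.1), with an adjusted p of 0.172 (limma) and of 0.0541 with the replicate block. The count of 661 genes fell to 74 without wild-type library 3, 266 without Itpkb-/- library 2, 297 without wild-type library 2 and 299 without wild-type library 1. The 15 stem cell marker genes, which include Hlf, Mecom and Procr, summed to 3827 to 4484 normalized CPM in wild-type and 2366 to 3186 in Itpkb-/- libraries. Granulocyte markers were all detected (12 of 12) and summed to 3861, 2766 and 743 normalized CPM in wild-type libraries 1, 2 and 3 and to 6756, 18740 and 965 in Itpkb-/- libraries 1, 2 and 3, higher in the Itpkb-/- library of each same-numbered pair. With the replicate block all 12 passed as higher in Itpkb-/- cells, against 0 of 12 without it (limma). This is the fit that called Tgfb1 and Tgfbr3. Megakaryocyte and platelet markers summed to 1042, 1118 and 1153 normalized CPM in wild-type libraries 1, 2 and 3. In Itpkb-/- libraries 1, 2 and 3 they summed to 1493, 1252 and 2266. Of 11 tested, 3 passed as higher and 0 as lower (limma), against 2.27% and 3.24% of all tested genes. With the replicate block 5 passed as higher and 0 as lower, against 9.15% and 8.97%. The part of granulocyte or megakaryocyte RNA in the calls of Tgfb1 and Tgfbr3 was not tested. Cd3e, which defines T cells, was at 0.25 normalized CPM or less in every library, and Cdh5, which defines endothelial cells, at 0.52 or less. Some other genes of the endothelial list were higher, with wild-type means of 46.6 for Pecam1, 72.8 for Tek and 39.3 for Emcn. Of its 5 tested genes 1 passed, Emcn, as lower in Itpkb-/- cells (mean 13.7, limma adjusted p = 0.00824).

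Promoter sequence is shown for the ligand gene Tgfb1, which had the smallest p of the 10, and for the effector gene Smad3, the one whose genotypes did not overlap. Each window is the 250 bases before the RefSeq start site (build GRCm38.p6, gene strand), chr7:25686752-25687001 for Tgfb1 on the plus strand and chr9:63757995-63758244 for Smad3 on the minus strand. Both windows lie outside the GENCODE M21 gene body. Capitals mark matches on either strand to GTCT, the Smad box, and to GGCGC, a GC-rich Smad element.
Tgfb1: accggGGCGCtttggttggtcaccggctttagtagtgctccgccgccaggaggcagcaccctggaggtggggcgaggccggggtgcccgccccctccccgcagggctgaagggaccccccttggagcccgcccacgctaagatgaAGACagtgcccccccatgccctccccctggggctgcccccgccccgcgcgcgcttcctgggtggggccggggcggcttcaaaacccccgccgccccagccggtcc
Smad3: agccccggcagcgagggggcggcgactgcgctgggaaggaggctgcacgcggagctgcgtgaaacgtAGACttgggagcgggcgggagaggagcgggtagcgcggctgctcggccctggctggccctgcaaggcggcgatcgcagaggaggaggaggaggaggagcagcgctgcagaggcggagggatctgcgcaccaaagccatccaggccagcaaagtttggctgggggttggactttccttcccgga
The Tgfb1 window held 1 match to GTCT, read on the minus strand as AGAC, and 1 to GGCGC. The Smad3 window held 1 match to GTCT, also as AGAC, and 0 to GGCGC, and no base was shared by both motifs in either window. Of the 32851 promoter windows of the same length in the table, 82.9% held GTCT and 32.0% held GGCGC, and a match describes the letters, not a binding site. Windows were found for 6 of the 10 genes.

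The ligand gene Tgfb1 (chromosome 7, 25687002 to 25705077, plus strand of mm10) gave 238, 229 and 195 normalized CPM in wild-type libraries 1, 2 and 3, against 325, 234 and 279 in Itpkb-/- libraries 1, 2 and 3. Itpkb-/- libraries 1 and 3 lay above all wild-type libraries, while Itpkb-/- library 2 lay within their range. The Itpkb-/- mean was 279 ± 45.3 and the wild-type mean 221 ± 22.8 (SD, n = 3 each). The log2 difference was 0.33 with a 95% interval of 0.01 to 0.65 (limma, adjusted p = 0.314). In the same-numbered pairs the log2 difference was 0.44, 0.03 and 0.51, and the fit with the replicate block gave an interval of 0.10 to 0.56 (adjusted p = 0.0716). Over the alternatives the adjusted p of Tgfb1 ran from 0.0716 to 0.659.

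Tgfbr3 (chromosome 5, 107106570 to 107289629, minus strand) encodes betaglycan, an accessory receptor that presents TGF-beta to the signalling chains. Wild-type libraries gave 254, 213 and 224 normalized CPM, against 342, 218 and 291 for Itpkb-/- libraries. As for Tgfb1, Itpkb-/- libraries 1 and 3 were above all wild-type libraries and Itpkb-/- library 2 was not. The means were 284 ± 62.3 and 230.3 ± 21.1, a log2 difference of 0.28 with an interval of -0.08 to 0.64 (limma, adjusted p = 0.459). The paired fit gave an interval of 0.06 to 0.50 (adjusted p = 0.107), with pair differences of 0.43, 0.03 and 0.38. Of the annotated genes that overlap Tgfbr3, Gm43422 shares exon bases with it (297, same strand), and reads there could not be told apart.

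Neither signalling chain of the TGF-beta receptor differed by more than the spread between libraries. Tgfbr2 (chromosome 9, 116084293 to 116175360, minus strand), the type II kinase, gave 71.4, 46.8 and 61.1 normalized CPM in wild type, against 73.8, 56.4 and 66.6 for Itpkb-/-. The groups overlapped, library 2 was the lowest of each genotype, and the log2 difference was 0.15 with an interval of -0.26 to 0.55 (limma, adjusted p = 0.769). Tgfbr1 (chromosome 4, 47353222 to 47414931, plus strand), the type I kinase, gave 44.8, 46.9 and 42.6 normalized CPM in wild type, against 55.1, 35.4 and 43.4 for Itpkb-/-. Here the Itpkb-/- libraries held both the highest and the lowest value, the means were 44.6 ± 9.90 and 44.8 ± 2.15, and the log2 difference was -0.03 with an interval of -0.44 to 0.38 (limma, adjusted p = 0.966).

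**Figure D1:**
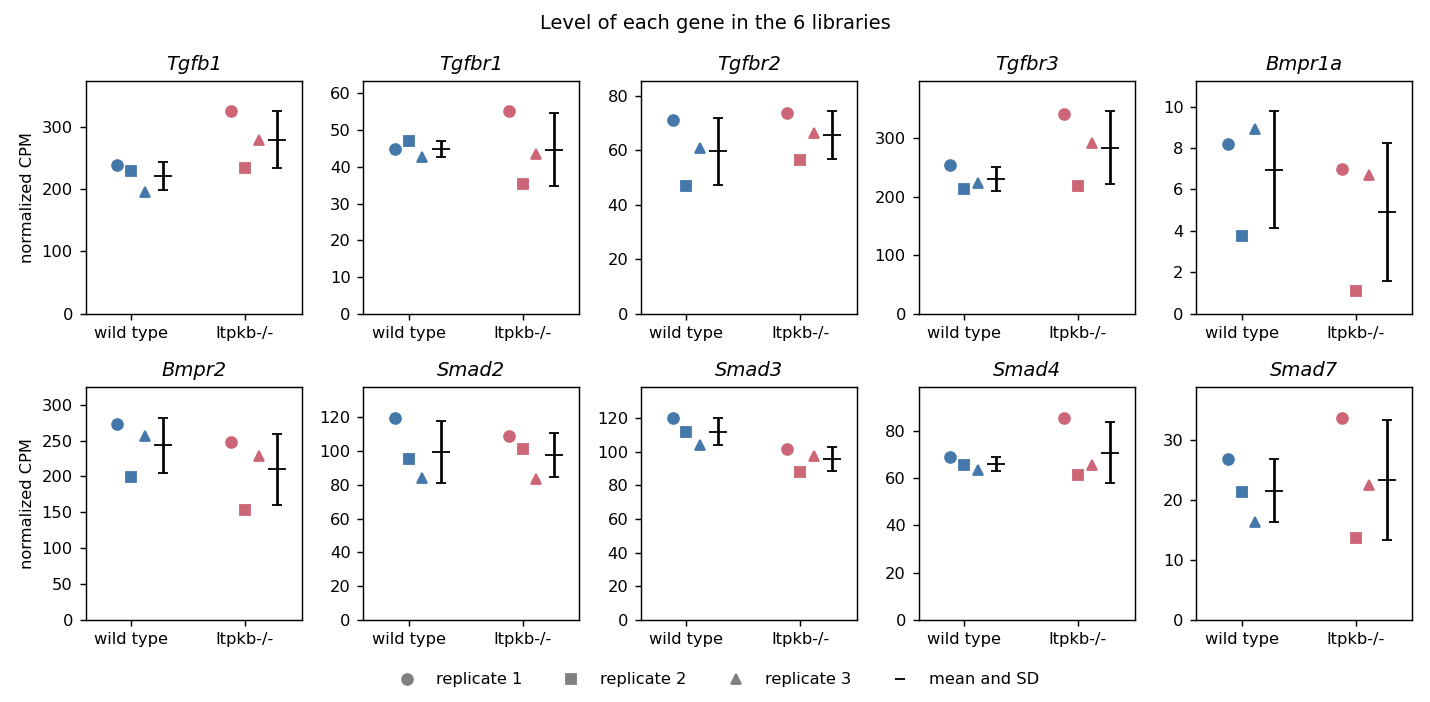
Normalized CPM of the 10 genes in each library (circle, square and triangle for replicates 1, 2 and 3), with wild type in blue, Itpkb-/- in red, and the mean and SD of 3 libraries as bars. Smad3 is the gene whose genotypes do not overlap, and Itpkb-/- library 1 is the highest of its genotype in all 10 panels.

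The BMP receptor genes both had lower means in Itpkb-/- cells, within the spread between libraries. Bmpr2 (chromosome 1, 59763400 to 59879014, plus strand), the type II chain for BMP ligands, gave 274, 199.5 and 257 normalized CPM in wild type, against 248, 154 and 228 for Itpkb-/-. The groups overlapped, and the log2 difference was -0.23 with an interval of -0.64 to 0.19 (limma, adjusted p = 0.618). It was lower in the Itpkb-/- library of 3 of 3 same-numbered pairs, and the paired fit put it just outside the limit (adjusted p = 0.169). The paired interval was -0.44 to -0.02 and lay below 0. In the fit without pairs, the log2 difference of Bmpr2 was -0.02 when Itpkb-/- library 2 was left out.

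Bmpr1a (chromosome 14, 34410734 to 34503341, minus strand), a type I chain for BMP ligands, was the least abundant of the 10. Wild-type libraries gave 8.21, 3.74 and 8.94 normalized CPM, from 33, 25 and 48 reads, and Itpkb-/- libraries gave 6.97, 1.09 and 6.68, from 32, 7 and 51 reads. Library 2 was the lowest of both genotypes. The log2 difference was -0.59 with an interval of -1.72 to 0.55 (limma, adjusted p = 0.644), the widest interval of the 10 and the one that reached beyond a 2-fold change. Without Itpkb-/- library 2 the difference was 0.05. An antisense gene of the annotation, Gm17110, overlaps Bmpr1a over 970 bases, 290 of them in exons of both, and the library kit does not mark strand, so reads there could not be told apart.

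Among the Smads, Smad3 (chromosome 9, 63646767 to 63757994, minus strand), a receptor-activated Smad of TGF-beta signalling, was the gene of the 10 whose genotypes did not overlap. It gave 120.4, 111 and 104 normalized CPM in wild type, against 102, 88.0 and 97.6 for Itpkb-/-, so every Itpkb-/- library lay below every wild-type one. Of all tested genes 21.3% had genotypes that did not overlap, and 11.3% had the Itpkb-/- values below. The means were 95.8 ± 7.07 and 112 ± 8.07, and the log2 difference of -0.22, with an interval of -0.52 to 0.07, missed the limit (limma, adjusted p = 0.462). The paired fit did not pass either (adjusted p = 0.255).

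Smad2 (chromosome 18, 76241580 to 76310963, plus strand), the other receptor-activated Smad of this branch, gave 119.9, 95.1 and 83.8 normalized CPM in wild type, against 109, 101 and 83.5 for Itpkb-/-. The ranges nearly coincided, and the log2 difference was -0.02 with an interval of -0.39 to 0.35 (limma, adjusted p = 0.972). Smad4 (chromosome 18, 73639009 to 73703780, minus strand), the shared partner of the activated Smads, gave 68.9, 65.5 and 63.3 in wild type, against 85.6, 61.2 and 65.5 for Itpkb-/-. Itpkb-/- library 1 stood above the other 5, and the log2 difference was 0.09 with an interval of -0.27 to 0.44 (adjusted p = 0.855). The genes annotated within Smad4 and Bmpr2 share no exon base with them.

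Smad7 (chromosome 18, 75367529 to 75395935, plus strand), the inhibitory Smad, gave 26.9, 21.4 and 16.4 normalized CPM in wild type, against 33.8, 13.7 and 22.5 for Itpkb-/-. The highest and the lowest value were both in Itpkb-/- libraries, and the log2 difference of 0.05 had an interval of -0.63 to 0.73 (limma, adjusted p = 0.962). The sign was negative without Itpkb-/- library 1 (-0.25) or wild-type library 3 (-0.12).

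**Figure D2:**
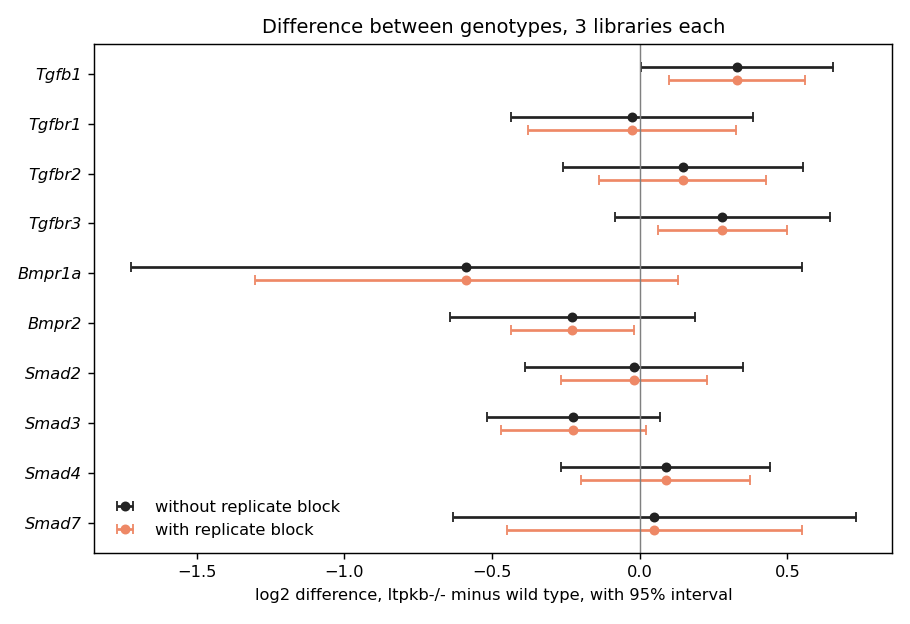
Log2 difference of each gene, Itpkb-/- minus wild type, with its 95% interval from limma (3 libraries a genotype), without the replicate block in black and with it in orange. In the black intervals 9 of 10 hold 0 and 9 of 10 lie within a 2-fold change in both directions, Bmpr1a being the wide one.

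The intervals state how large a change these libraries leave possible. With the replicate block the interval of each of the 10 genes was narrower. In the main fit, without the block, the 95% interval lay within a 2-fold change in either direction for 9 of the 10 genes. On the linear scale it ran from 1.00-fold to 1.57-fold for Tgfb1, 0.944-fold to 1.56-fold for Tgfbr3, 0.834-fold to 1.47-fold for Tgfbr2 and 0.740-fold to 1.30-fold for Tgfbr1. For Smad3 it ran from 0.699-fold to 1.05-fold, and for Bmpr1a from 0.303-fold to 1.46-fold. A missed threshold does not show that the genotypes are alike within these bounds. In sorted pools, fewer cells that express a gene and less RNA per cell cannot be told apart.

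The levels of the 10 genes were compared with each other per kilobase (kb) of exon, using the union of GENCODE M21 exons, over all 6 libraries. Tgfb1 was the highest at 49.6 ± 8.98 normalized CPM per kb (SD, n = 6), followed by Tgfbr3 at 39.3 ± 7.78. Tgfb1 was above Tgfbr3 in 6 of 6 libraries, although their ranges overlapped. Smad3 (18.7 ± 2.02) and Smad4 (18.4 ± 2.38) came next and could not be ordered, with Smad3 higher in 3 of 6 libraries.

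Bmpr2 (12.6 ± 2.44 normalized CPM per kb) was above Smad2 (11.2 ± 1.63) in 5 of 6 libraries, and Tgfbr2 (7.66 ± 1.23) above Tgfbr1 (6.84 ± 0.981) in 5 of 6, with overlapping ranges in both pairs. Smad7 (4.96 ± 1.60) was below Tgfbr1 in all 6, also with overlapping ranges. Bmpr1a (0.935 ± 0.468) was lowest in every library, with no overlap. The ranges also did not overlap between Tgfbr3 and Smad3, between Smad4 and Bmpr2, or between Smad2 and Tgfbr2. An exon union can be longer than the transcripts these cells use, which would lower the level per kb of that gene.

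**Figure D3:**
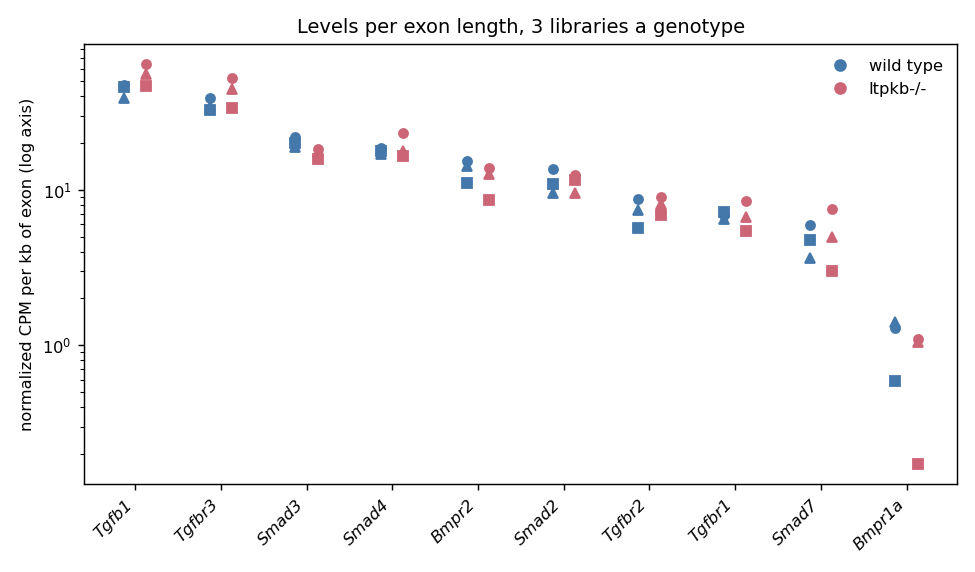
Normalized CPM per kb of exon for each gene in each library on a log axis, ordered by the mean over 6 libraries, with wild type in blue, Itpkb-/- in red and marker shapes for replicates 1 to 3 as circle, square and triangle. Tgfb1 and Tgfbr3 stand above the Smads and the signalling receptors, and Bmpr1a stands below all others.

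Within the Itpkb-/- genotype most of the 10 genes had the same highest and the same lowest library. Itpkb-/- library 1 was the highest of its genotype for all 10, a place it held for 35.8% of all tested genes, and Itpkb-/- library 2 was the lowest for 9 (all but Smad2), a place it held for 33.3%. Wild-type library 1 was the highest of its genotype for 8 of the 10, against 36.5% of tested genes, but the lowest place was split, with library 3 lowest for 6 and library 2 for 4. The median deviation of the 10 from their 6-library means was 0.32 on the log2 scale in Itpkb-/- library 1 and -0.22 in Itpkb-/- library 2, while the median over all tested genes was 0.00 and 0.01. Itpkb-/- library 2 is also the library with the highest granulocyte sum, 18740 normalized CPM, and the lowest stem cell sum, 2366. Mpo alone gave 8728 of that granulocyte sum, against 588 in Itpkb-/- library 1. Ngp, Lcn2 and Retnlg were lower in Itpkb-/- library 2 than in Itpkb-/- library 1 (467, 443 and 89.4 against 532, 463 and 133). The other granulocyte markers were higher in Itpkb-/- library 2. Itpkb-/- library 1, the highest for all 10, had the next highest granulocyte sum, 6756, and Itpkb-/- library 3, which lay between them for most of the 10, had 965. The part of granulocytes or stem cells in the levels of the 10 genes was not tested. This pattern was noticed in the data and is given as a description.

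**Figure D4:**
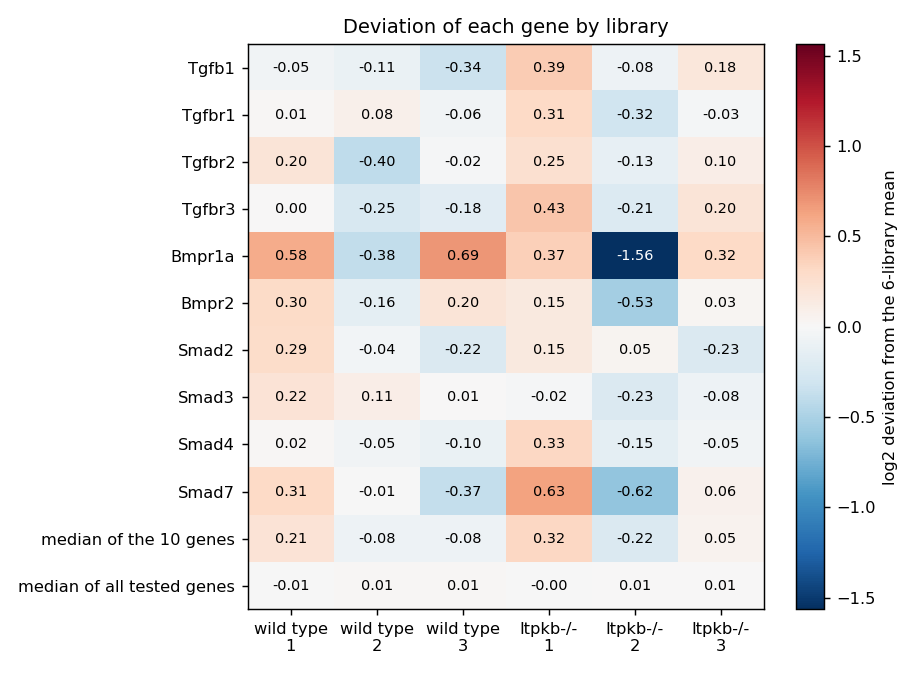
Log2 deviation of each gene from its mean over the 6 libraries, with columns for libraries, red above and blue below the mean, and the median of the 10 genes and of all 12008 tested genes in the bottom rows. Itpkb-/- library 1 is above the mean for 9 of the 10, and Bmpr1a in Itpkb-/- library 2, at -1.56, is the farthest value.

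Likeness between genes was measured as Pearson's r of log2(value + 1) over the 6 libraries, with no test. Among the 10, Bmpr1a and Bmpr2 were the most alike (r = 0.98). Both had their farthest value in Itpkb-/- library 2, with log2 deviations of -1.56 for Bmpr1a, from 7 reads, and -0.53 for Bmpr2. Next came Tgfb1 with Tgfbr3 (0.90) and Tgfbr1 with Smad7 (0.90), while Smad3 and Tgfb1 had r = -0.17. Among 10022 genes with a mean of at least 4 normalized CPM, those most like Tgfb1 were Tmx1 (0.99) and Emg1 (0.98), those most like Tgfbr3 were Cd274 and Tiparp (both 0.99), and those most like Smad3 were Mllt11 and Cyp4v3 (both 0.99). For the other receptors they were Plscr2 and Aga (Tgfbr1), Polk and Scap (Tgfbr2), Tnfsf4 and Bmpr2 (Bmpr1a), and Slc5a3 and Pex26 (Bmpr2). For the other Smads they were Npc2 and Swsap1 (Smad2), Tbl1xr1 and Ywhaz (Smad4), and Mysm1 and Cr1l (Smad7). These genes share libraries and depth with the 10, and values of 0.98 or more were found for each of the 10.

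The wider pathway was described by 6 lists holding 128 genes besides the 10. Of these, 76 were tested, 52 had values too low, and 25 of the 52 were listed at 0 in all libraries. In Itpkb-/- cells 4 of the 76 rose and 8 fell (limma, adjusted p of at most 0.15), which is 15.8% against 5.50% of all tested genes, with 2.27% of all tested genes higher and 3.24% lower. At the limit of 0.05, which 1.52% of all tested genes passed, 3 passed. Bgn, Cdkn1a and Cdkn1c were known to have changed in these data when the lists were written, so the share is no independent evidence. Htra3, among the 8 that fell, passed the filter on low values only through its wild-type libraries. The median log2 difference was -0.11. With the replicate block 6 rose and 16 fell, against 9.15% and 8.97% of all tested genes. The count of 12 was 5 without Itpkb-/- library 2, 5 without wild-type library 2, 3 without wild-type library 3 and 2 without both libraries numbered 2. The counts and medians by list that follow include genes of the 10. Outside the 10 lie 8 of 13 tested receptor genes, 3 of 7 Smads, 14 of 15 ligand and latent complex genes and 21 of 22 targets. Beside each count by list stand the 2.27% of all tested genes called higher and the 3.24% called lower.

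Of 13 tested receptor genes 2 fell in Itpkb-/- cells, Eng and Neo1, and the median log2 difference was -0.17. Eng, which encodes endoglin, an accessory receptor of the TGF-beta and BMP families, gave 222, 223 and 253 normalized CPM in wild type, against 167, 152 and 163 for Itpkb-/-. The genotypes did not overlap, with a log2 difference of -0.53 (SE 0.12, limma adjusted p = 0.0595).

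Neo1, which encodes neogenin, a receptor that binds BMP co-receptors of the RGM family, gave 19.4, 13.6 and 18.2 normalized CPM in wild type, against 6.53, 6.53 and 9.70 for Itpkb-/-. Its log2 difference was -1.08 (SE 0.27, limma adjusted p = 0.0795), and the genotypes did not overlap. Acvr1, Acvr1b, Acvr2a and Acvr2b, activin and BMP receptor chains, did not pass (adjusted p = 0.831, 0.950, 0.328 and 0.880). Of the receptors not tested, Bmpr1b was listed at 0 in all 6 libraries and Acvrl1 reached 2.95 normalized CPM in 1 of them.

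None of the 7 tested Smad genes passed (limma), 1 had an unadjusted p under 0.05, and edgeR called 0 of 6 and DESeq2 0 of 7. The gene nearest to the limit was Smad6, an inhibitory Smad of BMP signalling, which gave 4.23, 2.39 and 1.49 normalized CPM in wild type, against 1.09, 0.466 and 1.05 for Itpkb-/-. Its log2 difference of -0.94 had an adjusted p of 0.300 (limma). The BMP-activated Smad1 and Smad5 had log2 differences of 0.15 and -0.23 (adjusted p = 0.753 and 0.568).

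Among ligands and the proteins that hold or release latent TGF-beta, 2 of 15 tested genes rose and 2 fell. Bgn, which encodes the matrix proteoglycan biglycan, a binder of TGF-beta, was at 97.8 ± 13.6 normalized CPM in wild type and fell to 22.4 ± 8.05 (log2 difference -2.13, SE 0.24, limma adjusted p = 0.00299). Tgfb3, another TGF-beta ligand gene, fell from 3.23, 7.47 and 5.58 normalized CPM in wild-type to 0.218, 1.40 and 2.23 in Itpkb-/- libraries. Its log2 difference was -1.55 (limma adjusted p = 0.123). In Itpkb-/- library 1 Tgfb3 lay below the counting limit of 3 reads (0.653 normalized CPM).

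Mmp14, which encodes a membrane metalloprotease that can release latent TGF-beta, rose from 10.9 ± 6.17 to 28.7 ± 6.33 normalized CPM (log2 difference 1.43, limma adjusted p = 0.0749). Gdf3, a ligand gene of the same superfamily, rose from 39.5 ± 5.75 to 61.9 ± 7.99 (log2 difference 0.64, adjusted p = 0.106). Furin, the protease that cleaves TGF-beta precursors, and the latent TGF-beta binding protein gene Ltbp4 had log2 differences of -0.41 and -1.08 (adjusted p = 0.232 and 0.169) and passed as lower with the replicate block (0.0905 and 0.0779). The fit with the block called 8.97% of all tested genes as lower.

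Of the extracellular antagonists 3 of 14 were tested and 2 fell. Fstl1, a follistatin-like protein gene, fell from 44.4 ± 3.85 to 26.3 ± 5.67 normalized CPM (log2 difference -0.75, limma adjusted p = 0.0995). Htra3, a secreted serine protease gene, fell from 4.72, 4.04 and 2.05 to 0.218, 0 and 0.524 normalized CPM (log2 difference -1.85, adjusted p = 0.0516). Htra3 entered the test only through its wild-type values, so the direction of its call was set by the filter. In Itpkb-/- libraries 1 and 2 it lay below the counting limit (0.653 and 0.466 normalized CPM). Among 33 tested regulators of receptors and Smads 1 passed: Fkbp1a, whose product FKBP12 holds the type I receptors inactive, was at 188 ± 21.7 normalized CPM in wild type and fell to 125 ± 5.26 (log2 difference -0.58, SE 0.13, adjusted p = 0.0580). Ski and Skil, corepressors of Smads, had log2 differences of -0.40 and 0.54 (adjusted p = 0.274 and 0.298), and with the replicate block Ski passed as lower (0.0445) and Skil as higher (0.0279). The fit with the block called 18.1% of all tested genes.

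Among 22 tested genes known as targets of TGF-beta or BMP signalling in other cells, 2 rose and 1 fell, with a median log2 difference of 0.01. Tgfbi, a secreted protein gene named for its induction by TGF-beta, rose from 35.8, 27.6 and 22.7 normalized CPM in wild-type to 50.3, 67.6 and 62.3 in Itpkb-/- libraries (log2 difference 1.05, SE 0.20, limma adjusted p = 0.0334). The genotypes did not overlap. Cdkn1a and Cdkn1c, which encode the cell cycle inhibitors p21 and p57, moved in opposite directions, with log2 differences of 1.23 and -1.70 (adjusted p = 0.135 and 0.0320). Of the Id genes in the list, Id1 and Id2 were tested and did not pass. Their log2 differences were 0.14 and 0.43 (limma adjusted p = 0.937 and 0.712). Id3, a BMP target, was at 0.746 normalized CPM or less in all 6 libraries, and Id4 was listed at 0 in all 6.

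Of these 12 genes Bgn and Cdkn1c passed whichever library was left out, with an adjusted p of 0.146 or less (limma). Fkbp1a and Tgfbi did not pass without wild-type library 3 (0.285 and 0.198). Leaving out wild-type library 3 also ended the calls of Eng (0.291), Neo1 (0.295), Tgfb3 (0.352), Gdf3 (0.359), Mmp14 (0.266), Fstl1 (0.340) and Cdkn1a (0.403). Without Itpkb-/- library 2 the calls of Eng (0.167), Neo1 (0.207), Tgfb3 (0.219), Mmp14 (0.154), Fstl1 (0.210), Htra3 (0.154) and Cdkn1a (0.272) were lost. Without wild-type library 2 those of Eng (0.155), Tgfb3 (0.291), Gdf3 (0.239), Mmp14 (0.182), Fstl1 (0.175), Htra3 (0.162) and Cdkn1a (0.243) were lost. Wild-type library 1 was needed for Neo1 (0.215), Fstl1 (0.219) and Htra3 (0.173), Itpkb-/- library 1 for Tgfb3 (0.195) and Cdkn1a (0.221), and Itpkb-/- library 3 for Gdf3 (0.216) and Mmp14 (0.151).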

How the data were processed

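Each of the 6 deposited columns is a signal: gene counts that the authors divided by a factor of that library, on the scale of CPM. Per the submitters' processing notes, CASAVA 1.8.2, cutadapt, TopHat2 2.0.8b, Partek and edgeR were used with build mm10. The series design text gives TopHat 1.4.1 and Partek 6.6 instead. The input, per the labels' protocols, was estimated at 1 to 5 ng of RNA, made into libraries with a NuGEN Ovation kit. All values (100%) lay within 0.01 read of a whole multiple of 1 step per library, which gave the whole reads for the count tests. With 3 reads as the floor, the counting limit was 0.393 to 0.746 normalized CPM, for counting error only.

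The values were tested two-sided with limma 3.58.1 (R 4.3.3) on log2(value + 1), allowing the variance to follow the mean, and genes had to reach 1 in at least 3 libraries. Differences are on this scale, on which low genes appear to change less than they do. Adjustment was over all 12008 genes. Alternatives were pseudocounts of 0.5 and 2, other filters, a replicate block, edgeR 4.0.16 (692 genes called of 11486), DESeq2 1.42.0 (883 of 12875) and leaving out libraries. Scripts were tested on simulated data. Libraries of a genotype differed by more than sampling noise (chi-square per degree of freedom 5.93 or more).

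Replicate numbers come from the titles. Deviations from genotype means correlated across genes by 0.296, 0.268 and 0.284 where the numbers matched and by no more than -0.0475 elsewhere. The negative values elsewhere are partly fixed, since deviations from a genotype mean cancel out for each gene. Of the fits, only the one with the replicate block took the numbers as pairs. The main fit does not pair the libraries, and no label says what the numbers mark. The members and lists were chosen with earlier results of these data known. The genes named in the text are the 10 genes, Itpkb, the 2 genes most like each of the 10, and marker genes of the cell type lists. From each pathway list every called gene is named, and otherwise the 2 of smallest p. Acvr1, Acvr1b, Acvr2a, Acvr2b, Bmpr1b, Acvrl1, Smad1, Smad5, Furin, Ltbp4, Ski and Skil, all list members, were named after their values were seen. Id1, Id2, Id3 and Id4, of the target list, were too. So were the markers Mpo, Ngp, Lcn2, Retnlg, Pdgfrb, Nkg7, Pecam1, Tek and Emcn. A further gene of the target list is not reported here. The other marker lists summed over wild-type and Itpkb-/- libraries to 1042 to 1153 and 1252 to 2266 normalized CPM for megakaryocytes, 173 to 526 and 139 to 598 for erythroid cells, 401 to 586 and 271 to 599 for monocytes, 30.6 to 38.8 and 31.8 to 36.8 for B cells, 67.6 to 115 and 96.9 to 289 for T and NK cells, 164 to 177 and 134 to 172 for endothelium and 18.8 to 23.6 and 30.7 to 56.2 for stroma. Of the 8 stromal markers 2 were tested and 1, Pdgfrb, passed as higher (limma), with means of 9.17 in wild type and 36.7 in Itpkb-/-. Most of the T and NK sum came from Nkg7, with means of 74.3 and 176. Promoter sequences are those of RefSeq, and positions and exon lengths those of GENCODE M21.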

Additional observations from a re-analysis of the deposited data

How the results depend on the processing

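Of the 10 genes, 0 passed under every alternative except the replicate block, which called 2, Tgfb1 and Tgfbr3, and the other 8 did not pass with it. With Bmpr1a removed by the expression limit (mean log2 value above 4), 9 were tested. The sign changed when single libraries were left out for Tgfbr1 (log2 difference -0.19 to 0.13), Tgfbr2 (-0.017 to 0.28), Bmpr1a (-0.92 to 0.049), Smad2 (-0.13 to 0.12), Smad4 (-0.055 to 0.18) and Smad7 (-0.25 to 0.37), and for Tgfbr1 without both libraries numbered 2 (0.16). Tgfb1, Tgfbr3, Bmpr2 and Smad3 kept their sign in these fits. Over all genes 661 were called, and 2176 with the replicate block, 386 with the expression limit, 182 at an adjusted p of at most 0.05, 139 without both libraries numbered 2, and 74 to 837 without single libraries. The count of 12 wider pathway genes became 22, 7, 3 and 2 under the first 4 of these and 3 to 12 without single libraries. The causes were not tested, except that the expression limit left 7960 and 52 genes to test. Depth limits Bmpr1a most, with 7 reads in 1 library, while the other 9 had at least 88 reads in every library.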
